A study of Mus musculus with 24 samples.

Results

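The 10 genes described here belong to complement, to antigen presentation by major histocompatibility complex (MHC) class I, to the serpin family of protease inhibitors and to inflammatory kinase signalling. They were chosen by name, as the entries of the deposited count table whose Entrez identifier maps to H2-K1, H2-D1, B2m, Tap1, C3, C4b, Serping1, Cd59a, Serpina3n or Ikbke. All 10 were found among the 24415 genes of the table. RNA sequencing had been carried out on mouse lens, in 24 libraries that form 6 groups of 4. The groups are LEGSKO epithelia with BSO, LEGSKO epithelia and wild-type (WT) epithelia, and the same 3 conditions for cortical fiber cells. The labels give C57BL/6 as the strain and total RNA as the material for every library.

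LEGSKO is known as a mouse in which Gclc, the catalytic subunit of the enzyme that limits glutathione synthesis, is deleted in the lens. The series calls LEGSKO lenses mildly and LEGSKO+BSO lenses severely deficient in glutathione. BSO, buthionine sulfoximine, blocks the same enzyme with a small molecule, so the LEGSKO+BSO group carries both the deletion and the inhibitor. No WT group with BSO is among the samples, so the effect of BSO is seen only on the LEGSKO background. Not given in the sources used here: the dose of BSO, the age of the mice and what drives the deletion. Whether libraries of 1 group come from separate animals is not in the labels, so each p-value measures the spread between libraries, which may be technical.

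MHC class I molecules show peptides from inside the cell to cytotoxic T cells. H2-K1 and H2-D1 encode their classical heavy chains in the mouse, B2m the light chain that the heavy chains need to reach the surface, and Tap1 a subunit of the transporter that brings peptides into the endoplasmic reticulum. Complement is a cascade of plasma proteases: C4b encodes a C4 component of the classical and lectin routes, C3 the component on which all routes meet, Serping1 the C1 inhibitor that stops the starting proteases, and Cd59a a surface protein that blocks the terminal pore. Serpina3n is a secreted serpin known as a marker of reactive glia and of the acute phase, and Ikbke encodes IKK-epsilon, a kinase of interferon and NF-kB signalling. The lens has no blood vessels after development and is counted among the immune-privileged parts of the eye. Its epithelium is a single layer at the front, and its fibers are elongated cells that lose their organelles as they mature.

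Total counts ran from 19.3 to 46.6 M (mega) per library, and LEGSKO+BSO fibers were sequenced most deeply, at 39.03 to 46.57 M. Levels are given as counts per M of library size (CPM), scaled by trimmed mean of M-values (TMM) over all 24 libraries. Folds are fitted by edgeR's quasi-likelihood test, a gene counts as called at a Benjamini-Hochberg adjusted p below 0.05 over all genes tested, and all adjusted p-values below come from that test unless DESeq2 is named. The tissue labels held against marker genes: in each condition 5 of 6 lens epithelium markers were lower in fibers, with Sfrp1 higher, and 11 of 12 fiber markers were higher in fibers. The targeted gene Gclc averaged 57.7 ± 12.3 CPM in LEGSKO+BSO epithelia, 39.8 ± 7.17 in LEGSKO epithelia and 53.1 ± 8.58 in WT epithelia (SD, n = 4). In fibers it averaged 110 ± 7.33 CPM in LEGSKO+BSO, 112 ± 9.37 in LEGSKO and 130 ± 46 in WT (SD, n = 4), and it was called in none of the 6 comparisons between conditions (lowest adjusted p = 0.105). Counts over the whole gene may include exons outside the deleted part, so they check no label. Crystallin genes, which encode the main lens proteins, held 50.12% of the counts in WT fiber library 1, which stood apart from 27.58% to 34.27% in the other fiber libraries of all conditions. Library 4 of LEGSKO+BSO epithelia and library 4 of LEGSKO+BSO fibers stood apart in the genes described here, as set out with each result.

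Upstream sequences are shown first, for 3 of the members whose levels were highest in the same library, LEGSKO+BSO epithelial library 4. The sequences come from the RefSeq promoter table of GRCm38.p6, which held a window for 8 of the 10 members and none for C4b and Serping1. Each is read 5′ to 3′ along the gene and ends before the first annotated base of the gene. Capitals mark matches, on either strand, to the interferon-stimulated response element type GAAANNGAA, the gamma-activated site type TTCNNNGAA and the kappaB type GGANNNNCC.
H2-D1, chr17:35262844-35263093, plus strand: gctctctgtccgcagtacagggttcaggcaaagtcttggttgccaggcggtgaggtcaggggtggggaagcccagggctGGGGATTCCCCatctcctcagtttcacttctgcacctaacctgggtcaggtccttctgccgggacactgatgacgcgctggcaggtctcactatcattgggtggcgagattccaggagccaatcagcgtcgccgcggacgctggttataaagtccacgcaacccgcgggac
B2m, chr2:122147437-122147686, plus strand: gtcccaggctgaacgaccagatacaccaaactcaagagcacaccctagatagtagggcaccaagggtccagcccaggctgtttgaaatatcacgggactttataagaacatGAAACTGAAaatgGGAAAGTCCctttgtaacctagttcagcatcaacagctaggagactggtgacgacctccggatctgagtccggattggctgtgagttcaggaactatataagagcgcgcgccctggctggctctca
Serpina3n, chr12:104406458-104406645, plus strand: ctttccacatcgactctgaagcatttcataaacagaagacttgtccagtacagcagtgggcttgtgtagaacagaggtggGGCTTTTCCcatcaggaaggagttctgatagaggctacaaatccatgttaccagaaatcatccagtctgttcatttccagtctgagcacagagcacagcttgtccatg

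The capitals of H2-D1 are 2 overlapping kappaB matches, GGGGATTCC at bases -171 to -163 and GGATTCCCC at bases -169 to -161, counted back from the start site of the table. H2-K1 has 2 overlapping windows, and both lie past the first annotated base of that gene. Window 1 holds the same pair of matches at -111 to -103 and -109 to -101, inside a run of 47 bases that is identical in H2-D1 and H2-K1. It also holds a kappaB match at -226 to -218, and window 2 holds these 3 matches at other positions. B2m holds an interferon-type match, GAAACTGAA, at -139 to -131 and a kappaB match at -126 to -118. Serpina3n holds a kappaB match at -170 to -162 in the stretch shown and another at -42 to -34, past the first annotated base. The window of Tap1, also highest in LEGSKO+BSO epithelial library 4, held 0 matches of the marked types, as did that of Ikbke. C3 and Cd59a, which were not highest in that library, held 3 kappaB matches and 1 interferon-type match. Such matches are common: the interferon type was present in 8.56%, the gamma-activated type in 8.3% and the kappaB type in 48.4% of 32851 windows of 300 bases. A match describes letters only, and nothing here measured binding.

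The first comparison is between the tissues. In WT lenses all 10 members were lower in fibers than in epithelia, from about 2-fold for the class I heavy chains to 64-fold for the C1 inhibitor gene Serping1. These folds depend on TMM scaling across the tissues, with library factors of 0.442 to 1.536, and this matters most for the smallest. H2-K1 kept a log2 of -1.21 to -1.07 in WT over 29 alternative fits, but none of them used unscaled totals. Calls were frequent between the tissues, where 76.4% of all 15560 genes tested were called in WT, and 39.4% were called lower in fibers. The members' median log2 change was -2.37, beside -0.09 over all genes tested. In LEGSKO+BSO lenses 9 of 10 members were called lower in fibers, with a median of -2.48 beside -0.09 over all genes, of which 78.9% were called and 40.8% were called lower. In LEGSKO lenses 9 of 10 were called lower as well, with a median of -2.42 beside -0.08 over all genes, of which 75.8% were called and 39% were called lower. C3 was the member not called in either condition (adjusted p = 0.137 in LEGSKO+BSO and 0.0836 in LEGSKO). Lower values in fibers can come from less RNA per cell or from fewer cells of a type in the sample, which bulk libraries cannot tell apart.

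Serping1 had 0.409, 1.34, 1.83 and 1 CPM in the 4 WT fiber libraries, against 81.2, 76, 69.3 and 82.5 CPM in WT epithelia. No fiber library came near an epithelial one. The fitted difference was 64-fold lower in WT fibers (log2 -6.00 ± 0.34 SE, adjusted p = 4.49e-14), 148-fold lower in LEGSKO fibers and 86.1-fold lower in LEGSKO+BSO fibers. C4b had 0.327, 1.57, 0.721 and 0.15 CPM in WT fibers, against 27.7, 31.2, 28.9 and 23.5 CPM in WT epithelia, and the groups were again far apart (37.1-fold lower, adjusted p = 4.69e-13). It was 57.4-fold lower in LEGSKO fibers and 58.3-fold lower in LEGSKO+BSO fibers. The LEGSKO+BSO folds rest on library 4 of the fibers: without it they were 285-fold for Serping1 and 101-fold for C4b, still called. The C4 paralogs C4a and C4b are near-identical, so their counts are uncertain, and C4a was 16.7-fold lower in WT fibers (adjusted p = 1.81e-12).

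The light chain gene B2m had 1.39, 0.324, 0.333 and 0.301 CPM in WT fibers, against 16.4, 13.2, 14.2 and 14.2 CPM in WT epithelia. It was 28.1-fold lower in fibers (log2 -4.81, 95% interval -5.67 to -3.95, adjusted p = 1.23e-10) and 45.7-fold lower without WT fiber library 1. The heavy chain gene H2-K1, in contrast, had 14.8, 17.8, 13.8 and 17 CPM in WT fibers, against 39.2, 35.9, 29.5 and 35.4 CPM in WT epithelia. It was 2.2-fold lower (95% interval of log2 -1.49 to -0.78, adjusted p = 1.76e-06), and H2-D1 was 2.05-fold lower (95% interval -1.50 to -0.57, adjusted p = 2.05e-04). The interval of B2m did not meet those of the heavy chains, although the difference between genes was not itself tested. Tap1 was 7.23-fold lower in WT fibers (adjusted p = 7.63e-08), at 0.0818, 1.11, 1.11 and 0.851 CPM against 5.68, 7.23, 6.37 and 5.05 CPM in WT epithelia. B2m rested on 36 counts and Tap1 on 62 counts over the 4 WT fiber libraries.

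Cd59a was the most even member. It had 21, 22.2, 23.4 and 20.7 CPM in WT fibers, against 82.4, 84, 93.8 and 95 CPM in WT epithelia, and was 4.06-fold lower in fibers (log2 -2.02 ± 0.09 SE, adjusted p = 1.39e-16). The same fold was 3.82 in LEGSKO and 3.93 in LEGSKO+BSO lenses. Ikbke was 2.08-fold lower in WT fibers (adjusted p = 0.00178) and Serpina3n 4.41-fold lower (adjusted p = 0.00806). In LEGSKO+BSO lenses Serpina3n was 43.7-fold lower in fibers (adjusted p = 1.79e-08), a fold that was 23.6 without epithelial library 4 and 127 without fiber library 4. C3 was close to the limit of detection, with 278 counts over all 24 libraries, and its call in WT (6.02-fold lower, adjusted p = 0.0399) was lost without WT epithelial library 1 or 3 or any of the 4 WT fiber libraries (adjusted p up to 0.11). In LEGSKO its call appeared without LEGSKO epithelial library 3 or 4 (adjusted p = 0.0461 and 0.0475).

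**Figure D1:**
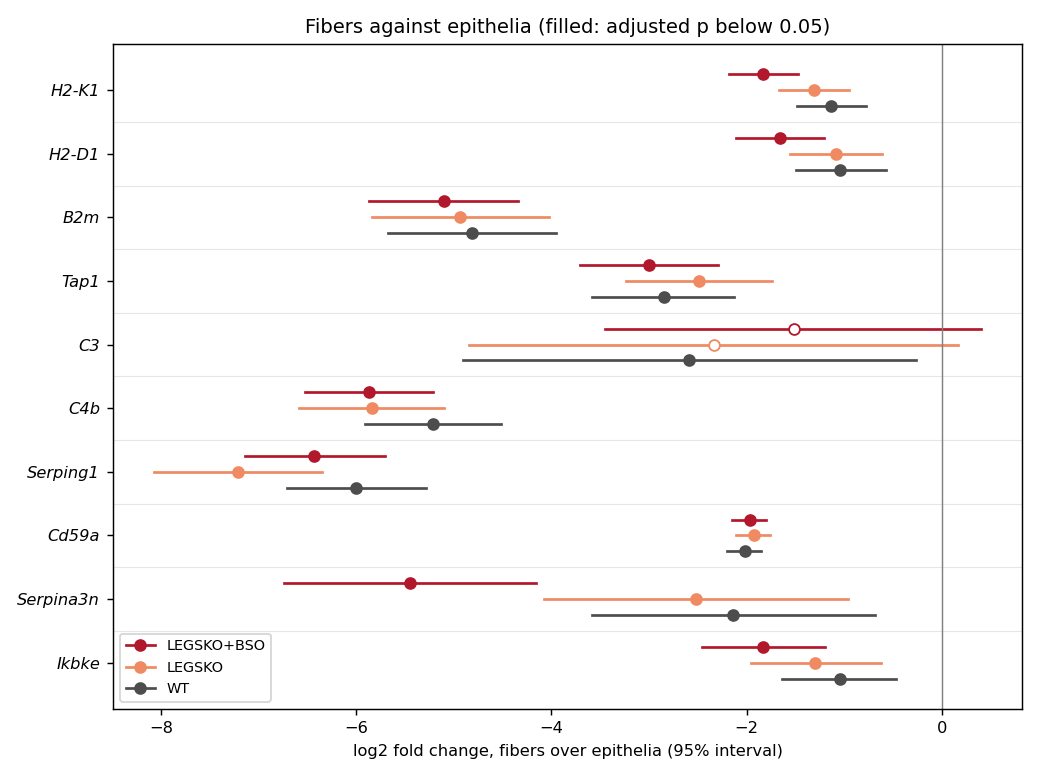
Log2 fold change of each member in fibers over epithelia, with its 95% interval, within LEGSKO+BSO, LEGSKO and WT lenses; filled points have an adjusted p below 0.05. All points lie below 0, with Serping1 lowest in WT (-6.00), and C3 is not called in LEGSKO+BSO or LEGSKO.

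Per kilobase of transcript, which allows levels to be set beside each other between genes, Cd59a was the most abundant member in WT epithelia at 49.2 ± 3.61 CPM per kb (SD, n = 4). Serping1 followed at 43.7 ± 3.39, and the ranges of these neighbours overlapped. H2-K1 at 21.6 ± 2.49 and B2m at 16.9 ± 1.57 CPM per kb formed the next overlapping pair, then H2-D1 at 11.4 ± 1.7 and C4b at 5.17 ± 0.6. Serpina3n, Tap1 and Ikbke lay together at 2.46 ± 0.435, 2.06 ± 0.317 and 1.83 ± 0.333 CPM per kb, each overlapping its neighbour, and C3 came last at 0.134 ± 0.118. In LEGSKO+BSO epithelia Serpina3n reached 22.6 ± 21.6 CPM per kb, beside B2m at 22.7 ± 13.4. Both means rest on library 4, at 53.4 CPM per kb for Serpina3n and 42.7 for B2m, where the other 3 libraries had 5.16 to 21.4 for Serpina3n and 14.7 to 17.2 CPM per kb for B2m. In WT fibers Cd59a (12.1 ± 0.683), H2-K1 (9.79 ± 1.15) and H2-D1 (5.58 ± 0.565 CPM per kb) stood clear of each other and of the rest, since the next member, Ikbke, had 0.871 ± 0.363.

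The lists of related genes held calls in both directions between the tissues, beside the 76.4% of all genes called and 39.4% called lower in WT fibers. Of 19 complement components tested, 14 were lower and 3 higher in WT fibers, with a median log2 difference of -2.96. C1ra and C1s1, the proteases that open the classical route and that the C1 inhibitor blocks, were 22.1-fold (adjusted p = 5.90e-15) and 25.7-fold lower (adjusted p = 1.05e-13). Among 16 complement regulators and receptors 9 were lower and 4 higher. Cfhr2, a gene of the regulator group, was 53.9-fold higher in WT fibers (12.4, 5.93, 9.43 and 8.41 CPM against 0.357, 0.0669, 0.231 and 0 CPM in WT epithelia, adjusted p = 1.66e-12), while clusterin, Clu, a secreted chaperone that also blocks the terminal complex, was 2.59-fold lower (adjusted p = 5.94e-12).

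Of 32 MHC class I and antigen-processing genes, 16 were lower and 7 higher in WT fibers, with a median of -0.46, and the share called was near that of all genes. Tapbp, which holds empty class I molecules at the transporter, was 5.28-fold lower (adjusted p = 1.68e-16), and Erap1, which trims peptides, 5.04-fold lower (adjusted p = 2.60e-15). Tap2, the partner subunit of Tap1, was 2.01-fold higher in WT fibers (27.8, 18.6, 22.3 and 20.2 CPM against 9.48, 11.9, 10.3 and 12.3 CPM in WT epithelia, adjusted p = 5.48e-08). Nlrc5, a transactivator of class I genes, was 110-fold higher in WT fibers (117, 55.1, 68.9 and 63.8 CPM against 0.357, 0.736, 1.12 and 0.496 CPM in WT epithelia, adjusted p = 3.64e-13). Tap2 and Nlrc5 lie outside the rule for naming and were picked after their values were seen. Whether reads were counted by strand is not given in the sources used here, so reads of overlapping genes cannot be told apart. Of 42 interferon response genes 34 were lower and 3 higher in WT fibers, and of 18 serpins 8 were lower and 8 higher.

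The second comparison is between conditions within the epithelium, where the question is how lens cells respond to mild and severe loss of glutathione. In LEGSKO epithelia 2 of 10 members were called against WT, both lower: Serping1 and Ikbke. The share called over all 15089 genes tested was 0.842%, and the members' median log2 change was -0.14, beside -0.01 over all genes. In LEGSKO+BSO epithelia 2 of 10 were called against WT, Serpina3n higher and Ikbke lower, where 1.17% of all genes were called and the medians were 0.14 for the members and -0.01 over all genes. LEGSKO+BSO against LEGSKO gave 1 called member, Serpina3n, at a share of 0.722% over all genes and medians of 0.24 and 0.00. The 3 comparisons share libraries and are not independent of each other.

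**Figure D2:**
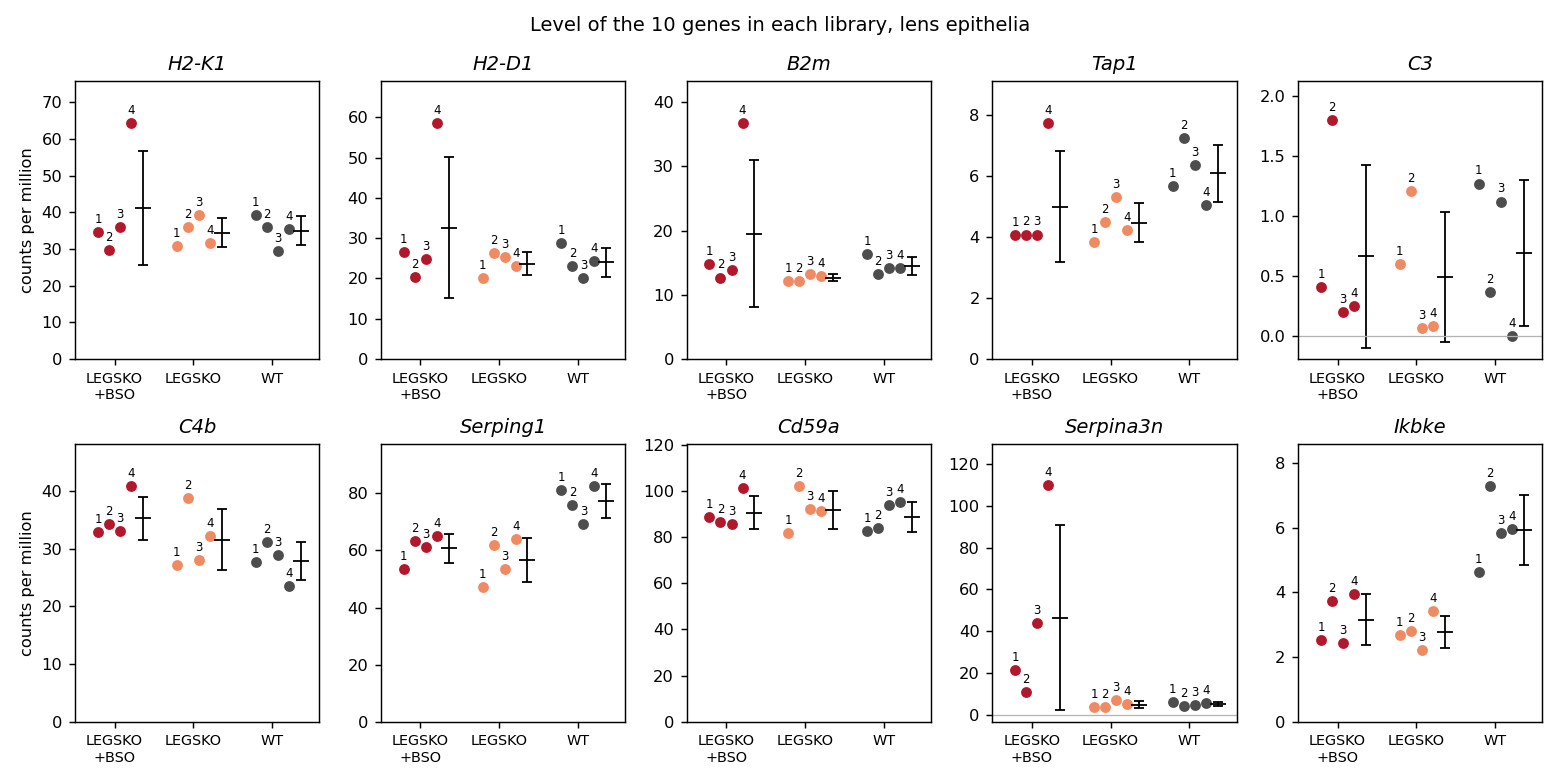
CPM of the 10 members in each of the 12 epithelia libraries (points, labelled by library number), grouped as LEGSKO+BSO, LEGSKO and WT, with bars for mean ± SD (n = 4). Serpina3n is higher in all 4 LEGSKO+BSO libraries than in any other, at 10.7 to 110 CPM, and library 4 of that group is the highest for H2-K1, H2-D1 and B2m.

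Serpina3n showed the largest difference of any member between conditions. It had 21.5, 10.7, 44.1 and 110 CPM in LEGSKO+BSO epithelia, 3.57, 3.68, 7.17 and 5.15 CPM in LEGSKO epithelia, and 5.91, 4.08, 4.55 and 5.75 CPM in WT epithelia. All 4 LEGSKO+BSO libraries lay above all 8 others, and LEGSKO and WT overlapped. The gene rose 9.24-fold in LEGSKO+BSO against WT (log2 3.21 ± 0.54 SE, 95% interval 2.06 to 4.36, adjusted p = 0.0110) and 9.69-fold against LEGSKO (log2 3.28 ± 0.54 SE, adjusted p = 0.0208). LEGSKO against WT gave log2 -0.07 (95% interval -1.28 to 1.15, adjusted p = 0.969), an interval that leaves room for a doubling in either direction.

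The size of the Serpina3n difference depends on library 4. Without it the gene was 5.03-fold higher than WT (adjusted p = 0.0141) and 5.28-fold higher than LEGSKO (adjusted p = 0.0354). The call against WT was lost without WT epithelial library 2, where the fold was 8.68 (adjusted p = 0.053). The call against LEGSKO was lost without LEGSKO+BSO library 1 (0.0541) or 3 (0.0612), or without LEGSKO library 2 (0.0688) or 4 (0.078, all adjusted p), while the log2 change of Serpina3n stayed between 2.40 and 3.60. Counts of the mouse Serpina3 genes, a cluster of close copies, are uncertain where reads fit several of them.

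Genes of the acute phase and of IL6-STAT3 signalling, the setting in which Serpina3n is known, were not called as a group. Of 15 tested, 1 was called higher in LEGSKO+BSO against WT, Serpina3n itself, and the median was 0.47; DESeq2 called 5 higher. Against LEGSKO, 2 were higher and 1 lower. The 2 were Serpina3n and A2m, the protease-binding alpha-2-macroglobulin (4.79-fold, adjusted p = 0.0428, called in 3 of 12 fits that leave out a library). A2m had 3.11, 7.45, 10.5 and 22.8 CPM in LEGSKO+BSO epithelia, 1.83, 3.22, 2.27 and 2.02 CPM in LEGSKO epithelia, and 7.37, 3.31, 3.2 and 3.18 CPM in WT epithelia. As with Serpina3n, library 4 was the highest, but LEGSKO+BSO and WT overlapped. The third, the neurotrophic cytokine Cntf, was 1.23-fold lower (adjusted p = 0.0428, called in 4 of 12 such fits). The 29 genes of the list that are not members summed to 1680 to 1792 CPM in LEGSKO+BSO epithelia. The sums were 1474 to 1611 CPM in LEGSKO and 1378 to 1627 CPM in WT epithelia. All LEGSKO+BSO sums thus lay above all others, and library 4 had the lowest of its group. Saa1, Saa2, Orm1 and Orm2, classical acute phase genes of the liver, had no count in any epithelial group.

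The gene whose pattern over the 12 epithelia libraries was most like that of Serpina3n was Gpnmb, a membrane glycoprotein of pigment cells and macrophages (Pearson r 0.97 of log2 CPM over 12 libraries, 0.93 over the 11 without LEGSKO+BSO library 4, among 12228 genes searched). Gpnmb had 15.1, 4.7, 11.5 and 42.5 CPM in LEGSKO+BSO epithelia, 2.78, 1.81, 3.91 and 2.96 CPM in LEGSKO epithelia, and 3.83, 2.74, 3.49 and 3.15 CPM in WT epithelia. It rose 5.63-fold against WT (adjusted p = 0.021) and 6.56-fold against LEGSKO (adjusted p = 0.0248). The libraries share condition, tissue and any handling in common, so such a correlation only describes them. Gpnmb was picked by it in these same libraries, so the folds and p-values of Gpnmb are not independent of that choice.

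The markers of other cells did not all move the same way with these libraries. The 10 pigmented iris and ciliary body markers summed to 235 to 283 CPM in LEGSKO+BSO epithelia, 218 to 261 in LEGSKO and 192 to 232 in WT. Of 9 tested, Gpnmb was called higher in LEGSKO+BSO against WT, Gpnmb and Dct in LEGSKO+BSO against LEGSKO, and Trpm1 in LEGSKO against WT. The 16 macrophage markers summed to 3 to 18.3 CPM in LEGSKO+BSO, 1.95 to 4.49 in LEGSKO and 2.92 to 11.4 in WT epithelia, with 0 of 9 tested called by edgeR and none without a count over a group. The 9 markers of corneal and conjunctival epithelium summed to 123 to 138 CPM in LEGSKO+BSO, 145 to 151 in LEGSKO and 70.2 to 100 in WT epithelia, and Krt15 and Krt19 were called higher than WT in both conditions.

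The 10 stroma and muscle markers summed to 372 to 402 CPM in LEGSKO+BSO and 406 to 432 CPM in LEGSKO epithelia, against 288 to 369 CPM in WT epithelia. Like Ikbke and Serping1, this sum set WT apart from both deficient groups, and Col1a2, a collagen chain gene, was called higher than WT in both, 1 of 5 tested. Col1a2 had 62.4, 36.7, 66.6 and 66.2 CPM in LEGSKO+BSO, 56.2, 81.6, 92.5 and 67.6 CPM in LEGSKO, and 30.3, 2.91, 12.7 and 4.88 CPM in WT epithelia. Kera was without a count in all 3 groups, and Lum in WT. The 9 retinal markers summed to 12.4 to 83.6 CPM in LEGSKO+BSO, 17.7 to 211 in LEGSKO and 48.6 to 276 in WT epithelia. Their median log2 change was -1.62 in LEGSKO+BSO and -0.42 in LEGSKO against WT, with overlapping groups and 0 of 9 called by edgeR. Lymphocyte markers summed to under 1 CPM in every epithelial library (0.13 to 0.979). The part of all these markers in the results for Serpina3n, Serping1 and Ikbke was not tested.

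Ikbke was lower than WT in both glutathione-deficient epithelia. It had 2.53, 3.74, 2.43 and 3.94 CPM in LEGSKO+BSO, 2.68, 2.81, 2.21 and 3.43 CPM in LEGSKO, and 4.64, 7.29, 5.85 and 5.96 CPM in WT epithelia. Neither deficient group overlapped WT, and they overlapped each other. Ikbke fell 2.15-fold in LEGSKO (log2 -1.11 ± 0.20 SE, 95% interval -1.52 to -0.69, adjusted p = 0.0141) and 1.87-fold in LEGSKO+BSO (log2 -0.90 ± 0.19 SE, 95% interval -1.31 to -0.49, adjusted p = 0.0391). LEGSKO+BSO against LEGSKO gave log2 0.20 (95% interval -0.22 to 0.63, adjusted p = 0.593).

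The direction of the Ikbke difference in epithelia held in all fits, and its calls were less firm. The LEGSKO call was lost without LEGSKO library 2 or 3 or WT library 2 (adjusted p = 0.0525, 0.0664 and 0.064). The LEGSKO+BSO call was lost without LEGSKO+BSO library 1 or 3, LEGSKO library 1 or 2, or WT library 2, 3 or 4 (adjusted p 0.057 to 0.135), and in a fit of these 2 groups alone (0.0931). Among the 26 IKK-related and NF-kB genes tested in epithelia, Ikbke was the single call in each comparison with WT. Tbk1, the closest relative of the kinase, gave log2 0.04 ± 0.07 SE in LEGSKO+BSO and 0.03 ± 0.07 SE in LEGSKO epithelia (adjusted p = 0.841 and 0.881). The genes most like Ikbke over the 12 epithelia libraries were Nav1 and Robo2 (r 0.93 each), and among the members Serping1 (r 0.82, also 0.82 without LEGSKO+BSO library 4).

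Serping1 was the complement member called in the epithelium, in 1 of 3 comparisons. It had 53.5, 63.2, 61.3 and 65 CPM in LEGSKO+BSO epithelia, 47.2, 62, 53.6 and 64 CPM in LEGSKO epithelia, and 81.2, 76, 69.3 and 82.5 CPM in WT epithelia. All 8 deficient libraries lay below all 4 WT libraries. Serping1 fell 1.38-fold in LEGSKO (log2 -0.46 ± 0.10 SE, 95% interval -0.67 to -0.26, adjusted p = 0.0363). In LEGSKO+BSO the log2 change was -0.34 ± 0.10 SE (95% interval -0.55 to -0.14, adjusted p = 0.0956), which missed the threshold, while DESeq2 called it (adjusted p = 0.0257). LEGSKO+BSO against LEGSKO gave 0.12 ± 0.10 SE (adjusted p = 0.508).

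The Serping1 call in LEGSKO was lost without LEGSKO+BSO library 3, LEGSKO library 1, 2 or 3, or WT library 1, 2 or 4 (adjusted p 0.0528 to 0.104), and in a fit of LEGSKO and WT alone (0.0621). Its log2 change kept to -0.52 to -0.39 throughout. The proteases it inhibits, C1ra and C1s1, were not called by edgeR. C1s1 gave log2 0.39 ± 0.12 SE in LEGSKO and 0.32 ± 0.11 SE in LEGSKO+BSO against WT (adjusted p = 0.127 and 0.202). C1ra gave 0.11 ± 0.10 SE and 0.15 ± 0.10 SE (adjusted p = 0.668 and 0.54). Of 17 complement components tested in epithelia, edgeR called 0 in any of the 3 comparisons. Their medians were 0.04 in LEGSKO against WT, 0.22 in LEGSKO+BSO against WT and 0.18 in LEGSKO+BSO against LEGSKO. DESeq2 called 2 higher in LEGSKO against WT and 0 in the others.

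C4b had 32.9, 34.2, 33 and 40.8 CPM in LEGSKO+BSO epithelia, 27.2, 38.8, 28 and 32.1 CPM in LEGSKO epithelia, and 27.7, 31.2, 28.9 and 23.5 CPM in WT epithelia. The LEGSKO+BSO libraries all lay above the WT libraries, with LEGSKO across both. The 1.27-fold difference to WT did not pass the adjustment (log2 0.35 ± 0.11 SE, 95% interval 0.11 to 0.59, adjusted p = 0.148) and was log2 0.27 without library 4 (adjusted p = 0.352). Its pattern was closest to that of C4a (r 0.93 over 12 libraries, 0.90 over 11), which shares nearly all of its sequence.

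C3 had 0.405, 1.8, 0.202 and 0.25 CPM in LEGSKO+BSO, 0.6, 1.21, 0.0641 and 0.083 CPM in LEGSKO, and 1.27, 0.368, 1.12 and 0 CPM in WT epithelia. The groups overlapped fully, and with 88, 60 and 89 counts per group a difference of a few-fold was not detectable at this depth (log2 -0.09 in LEGSKO+BSO against WT, 95% interval -2.12 to 1.95, adjusted p = 0.978). Cd59a had 88.8, 86.3, 85.7 and 101 CPM in LEGSKO+BSO, 81.9, 102, 92.3 and 91.3 CPM in LEGSKO, and 82.4, 84, 93.8 and 95 CPM in WT epithelia. Here the groups overlapped with a narrow interval: LEGSKO against WT gave log2 0.03 (95% interval -0.14 to 0.20, adjusted p = 0.889).

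Among the 14 complement regulators and receptors tested in epithelia, Serping1 fell and Cfi rose in LEGSKO, and Cfi rose in LEGSKO+BSO. Cfi encodes factor I, the protease that inactivates C3b and C4b. It had 2.38, 1.77, 2.6 and 3.07 CPM in LEGSKO+BSO and 1.96, 2.55, 3.27 and 2.82 CPM in LEGSKO, against 0.26, 0.134, 0 and 0 CPM in WT epithelia, where the 4 libraries held 12 counts. The fitted folds were 25.4 (adjusted p = 0.00121) in LEGSKO+BSO and 26.9 (adjusted p = 0.00154) in LEGSKO. Both calls held in each of 12 fits that leave out a library, with folds of 18.8 to 56.1 and 19.9 to 58.9.

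The 4 class I members were all highest in the same epithelial library, though Tap1 by a narrow margin (7.72 CPM beside 7.23 in WT library 2). H2-K1 had 34.6, 29.8, 36.1 and 64.2 CPM in LEGSKO+BSO epithelia, 30.8, 36.1, 39.3 and 31.6 CPM in LEGSKO epithelia, and 39.2, 35.9, 29.5 and 35.4 CPM in WT epithelia. H2-D1 had 26.6, 20.3, 24.8 and 58.5 CPM in LEGSKO+BSO, 20.1, 26.4, 25.3 and 23 CPM in LEGSKO, and 28.7, 23, 20.1 and 24.3 CPM in WT epithelia. B2m had 14.8, 12.7, 13.9 and 36.7 CPM in LEGSKO+BSO, 12.2, 12.2, 13.3 and 13 CPM in LEGSKO, and 16.4, 13.2, 14.2 and 14.2 CPM in WT epithelia. In each of these genes LEGSKO+BSO library 4 was above the 11 other libraries and the other 3 LEGSKO+BSO libraries lay among them.

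Against WT epithelia, LEGSKO+BSO gave log2 0.24 ± 0.19 SE for H2-K1 (adjusted p = 0.58), 0.45 ± 0.25 SE for H2-D1 (adjusted p = 0.423) and 0.44 ± 0.26 SE for B2m (adjusted p = 0.448). Without library 4 the same changes were -0.06, 0.00 and -0.07 (adjusted p = 0.903, 0.998 and 0.849). Against LEGSKO, B2m gave 0.66 (95% interval 0.11 to 1.20, adjusted p = 0.189) with library 4 and 0.15 without it (adjusted p = 0.51). Tap1 had 4.07, 4.08, 4.08 and 7.72 CPM in LEGSKO+BSO, 3.82, 4.49, 5.32 and 4.23 CPM in LEGSKO, and 5.68, 7.23, 6.37 and 5.05 CPM in WT epithelia. Apart from library 4 its LEGSKO+BSO values lay below all WT values, and the difference between LEGSKO+BSO and WT was log2 -0.27 with that library and -0.57 without it (adjusted p = 0.573 and 0.138). LEGSKO against WT gave -0.46 (95% interval -0.90 to -0.02, adjusted p = 0.327).

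**Figure D3:**
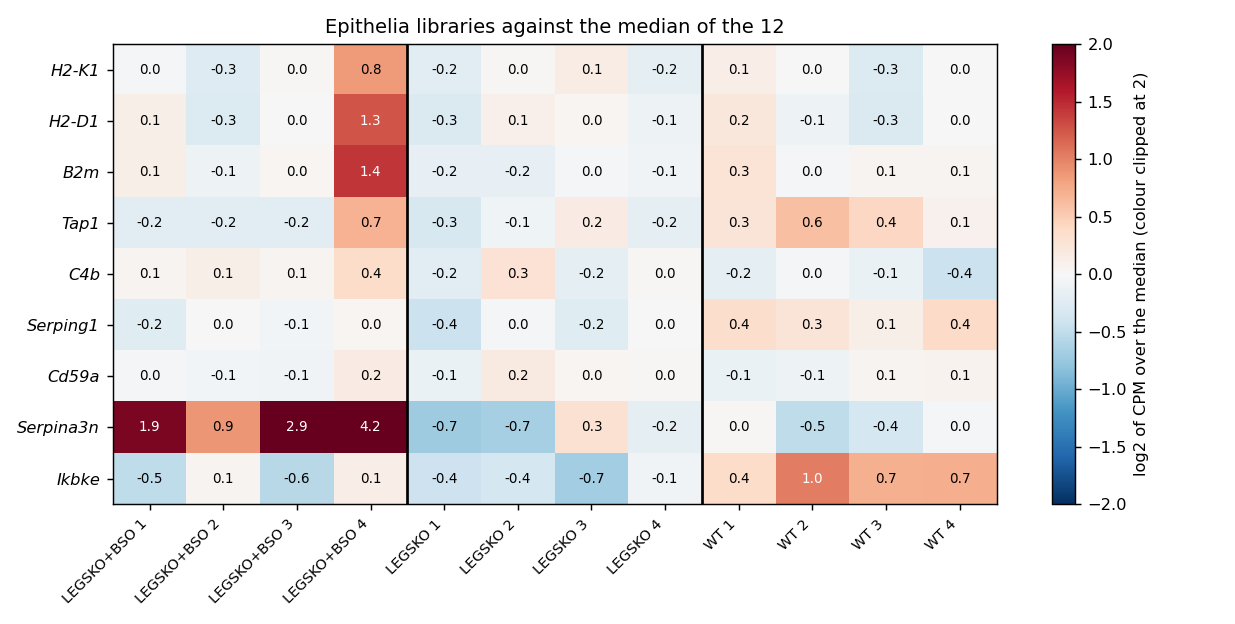
Log2 ratio of CPM to the median of the 12 epithelia libraries, for 9 members (C3 left out for its low counts) by library, with LEGSKO+BSO, LEGSKO and WT from left to right. LEGSKO+BSO library 4 is high for H2-K1, H2-D1, B2m, Tap1, C4b and Serpina3n, while Serping1 and Ikbke separate all WT libraries from the rest.

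LEGSKO+BSO epithelial library 4 was the highest of the 12 for 6 of the 10 members: H2-K1, H2-D1, B2m, Tap1, C4b and Serpina3n. It reached 1.81 times the median of the other libraries for H2-K1, 2.41 times for H2-D1, 2.77 times for B2m and 19.2 times for Serpina3n. The ratio was 1.72 for Tap1 and 1.31 for C4b. It ranked 5th for Serping1 and Ikbke, 2nd for Cd59a and 8th for C3. Of 28 further MHC class I and antigen-processing genes, 16 were highest in it, whereas 13.3% of all genes tested were highest in this library. The class I transactivator Nlrc5, chosen after its values were seen, had 4.75 CPM in it, against 0.301 to 1.32 CPM in the 11 other epithelia libraries.

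Its list sums place that library beside the others. The 46 interferon response genes summed to 653 CPM in it and 580 to 645 CPM in the others, and 5 of the 46 were highest in it. The pigment markers summed to 283 CPM against 192 to 261, and the lens fiber markers to 32205 CPM against 38712 to 68237, the lowest of the 12. Macrophage markers, at 8.26 CPM against 1.95 to 18.3, and MHC class II genes, at 11.8 CPM against 7.26 to 16.8, lay within the range of the others. The part of these markers in the high values was not tested.

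Over the 32 MHC class I and antigen-processing genes tested in epithelia, edgeR called 0 in each comparison. The medians were -0.03 in LEGSKO against WT, 0.17 in LEGSKO+BSO against WT and 0.21 in LEGSKO+BSO against LEGSKO. DESeq2 called 1 higher in LEGSKO against WT, 0 in LEGSKO+BSO against WT, and 1 higher and 1 lower in LEGSKO+BSO against LEGSKO. Without library 4 the LEGSKO+BSO medians were 0.00 against WT and 0.03 against LEGSKO. Of 41 interferon response genes, edgeR called 1, Ifit1, lower in LEGSKO+BSO against WT (1.58-fold, adjusted p = 0.0452) and 1, Ifit2, lower against LEGSKO (1.32-fold, adjusted p = 0.0428). Those calls held in 2 and 3 of 12 fits that leave out a library. Across the 12 libraries H2-K1 and H2-D1 were each other's closest gene (r 0.97, and 0.89 without library 4). B2m followed H2-D1 with r 0.94 in all libraries and 0.59 without library 4. Tap1 followed H2-D1 less closely (r 0.53, and 0.09 without library 4). Reads shared between H2-K1, H2-D1 and the H2-Q genes may add to the likeness of the heavy chains.

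**Figure D4:**
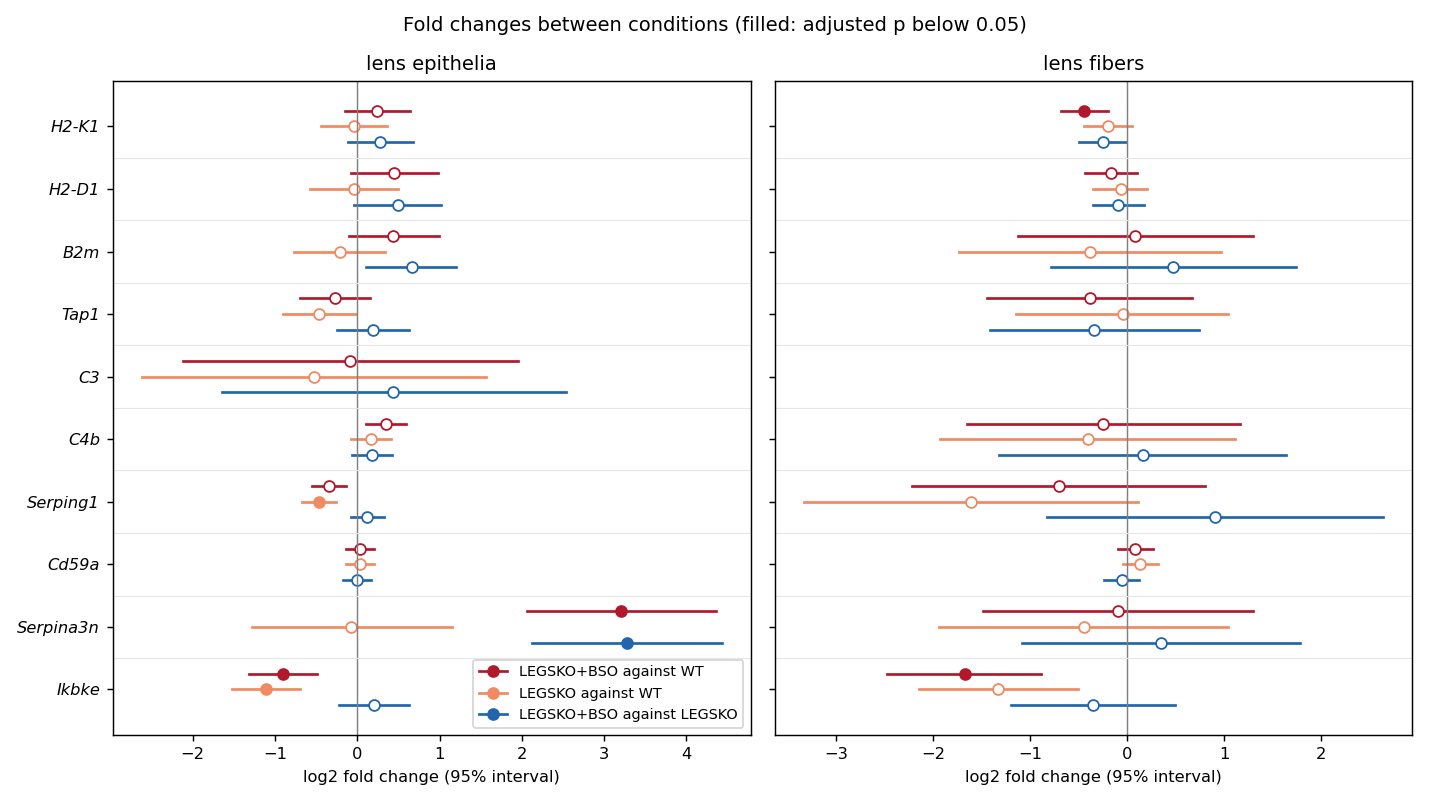
Log2 fold change with 95% interval for the 10 members in LEGSKO+BSO against WT, LEGSKO+BSO against LEGSKO and LEGSKO against WT, in epithelia and in fibers; filled points have an adjusted p below 0.05. Serpina3n in LEGSKO+BSO epithelia (3.21 and 3.28) is the highest, Ikbke lies below 0 in every comparison with WT, and C3 was not tested in fibers.

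The third comparison is between conditions within cortical fibers, where 9 of 10 members passed the filter on low counts and C3 did not. LEGSKO+BSO against WT called 2 of the 9, H2-K1 and Ikbke, both lower, where 5.52% of the 13436 genes tested were called, and the medians were -0.25 for the members and -0.01 over all genes. LEGSKO against WT called 0 of 9 by edgeR, with 1 member at an unadjusted p below 0.05 and 1 called by DESeq2, at a background of 1.64% and medians of -0.39 and -0.01. LEGSKO+BSO against LEGSKO called 0 of 9 by edgeR and by DESeq2, with 1 at an unadjusted p below 0.05, at a background of 0.0298% and medians of -0.06 and -0.00. These backgrounds depend on WT fiber library 1. Without it edgeR called 1075, 591 and 93 of 13615 genes in the same order of comparisons.

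**Figure D5:**
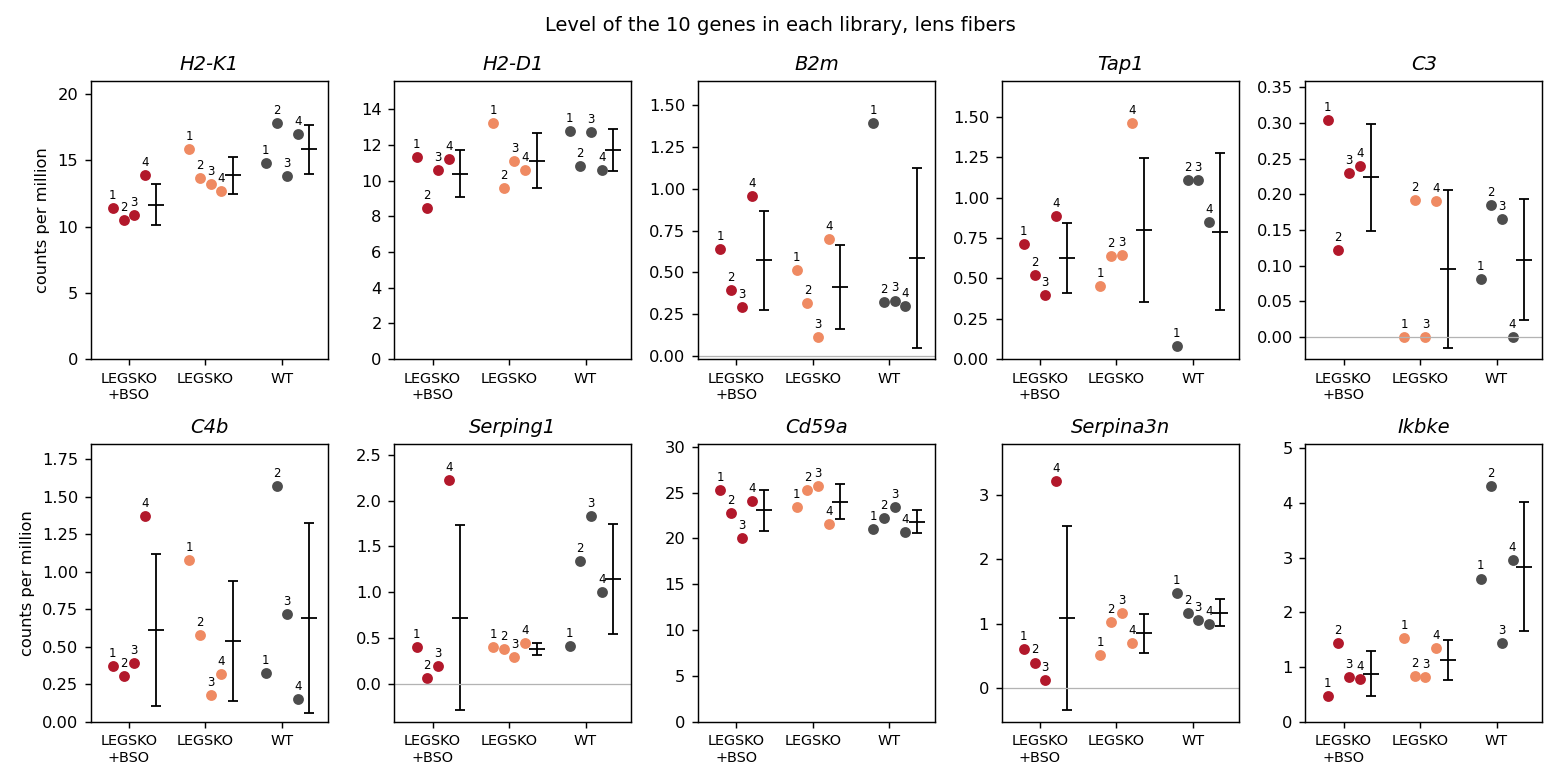
CPM of the 10 members in each of the 12 fiber libraries (points, labelled by library number), grouped as LEGSKO+BSO, LEGSKO and WT, with bars for mean ± SD (n = 4). Ikbke is mostly higher in WT, at 1.44 to 4.31 CPM, but LEGSKO library 1 (1.53 CPM) and LEGSKO+BSO library 2 (1.44 CPM) meet WT library 3. LEGSKO+BSO library 4 is the highest for Serping1 and Serpina3n.

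H2-K1 had 11.4, 10.5, 10.9 and 13.9 CPM in LEGSKO+BSO fibers, 15.9, 13.7, 13.2 and 12.7 CPM in LEGSKO fibers, and 14.8, 17.8, 13.8 and 17 CPM in WT fibers. The highest LEGSKO+BSO library just overlapped the lowest WT library, and LEGSKO overlapped both. H2-K1 fell 1.36-fold in LEGSKO+BSO against WT (log2 -0.45 ± 0.11 SE, 95% interval -0.69 to -0.20, adjusted p = 0.0355). The call was lost without LEGSKO+BSO library 1, 2 or 3, LEGSKO library 3, or WT library 2 or 4 (adjusted p 0.0509 to 0.106), in a fit of the 2 groups alone (0.068) and with the replicate number as a block (0.0539). H2-D1 gave log2 -0.17 ± 0.13 SE (adjusted p = 0.464), at 11.3, 8.45, 10.6 and 11.2 CPM in LEGSKO+BSO and 12.8, 10.8, 12.7 and 10.6 CPM in WT fibers, and the groups overlapped.

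Tap2, the other subunit of the peptide transporter, fell 1.61-fold in LEGSKO+BSO fibers (adjusted p = 0.00583), in all of 12 fits that leave out a library. It had 12.6, 15, 13.3 and 13.9 CPM in LEGSKO+BSO, 16.3, 19.7, 13.9 and 17.2 CPM in LEGSKO, and 27.8, 18.6, 22.3 and 20.2 CPM in WT fibers, and LEGSKO+BSO did not overlap WT. Tap2 and H2-K1 were the 2 calls, both lower, among 29 MHC class I genes tested in this comparison, whose median was -0.17.

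Ikbke had 0.473, 1.44, 0.822 and 0.786 CPM in LEGSKO+BSO fibers, 1.53, 0.831, 0.82 and 1.34 CPM in LEGSKO fibers, and 2.62, 4.31, 1.44 and 2.96 CPM in WT fibers. The deficient libraries lay below WT except where they met WT library 3. Ikbke fell 3.21-fold in LEGSKO+BSO (log2 -1.68 ± 0.37 SE, 95% interval -2.48 to -0.89, adjusted p = 0.0191). In LEGSKO it was 2.51-fold lower without passing the adjustment (log2 -1.33 ± 0.38 SE, 95% interval -2.15 to -0.51, adjusted p = 0.103; DESeq2 0.0279). The LEGSKO+BSO call of Ikbke was lost without LEGSKO+BSO library 1, 3 or 4 or WT library 2 (adjusted p 0.0587 to 0.0679). The groups rested on 109 counts in LEGSKO+BSO, 75 in LEGSKO and 210 in WT fibers.

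The other IKK-related call in LEGSKO+BSO fibers was Optn, optineurin, an adaptor of the same kinases, which fell 1.39-fold (adjusted p = 9.13e-04, in all of 12 fits that leave out a library). Optn had 59.1, 58.9, 59.1 and 55.8 CPM in LEGSKO+BSO, 66.5, 62.4, 71.4 and 67.3 CPM in LEGSKO, and 84.3, 76, 83.6 and 78.9 CPM in WT fibers, with no overlap between the groups. It also fell 1.21-fold in LEGSKO (adjusted p = 0.0439), a call that held in 1 of 12 such fits (adjusted p up to 0.1). The stroma and muscle markers summed to 1033 to 1236 CPM in LEGSKO+BSO and 1074 to 1220 CPM in LEGSKO fibers, against 867 to 927 CPM in WT fibers. Acta2 was called higher than WT in both. Dcn, Lum and Kera had no count in any of the fiber groups. Col3a1 had none in LEGSKO+BSO and LEGSKO, Des none in LEGSKO+BSO and Col1a1 none in LEGSKO, so the sums rest on the remaining markers. The part of these markers in the results for H2-K1, Ikbke and Optn was not tested.

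Serping1 and C4b were near the lower end of detection in fibers, whereas Cd59a was not. Serping1 had 0.406, 0.0612, 0.197 and 2.22 CPM in LEGSKO+BSO, 0.398, 0.383, 0.293 and 0.446 CPM in LEGSKO, and 0.409, 1.34, 1.83 and 1 CPM in WT fibers. Library 4 of LEGSKO+BSO was the highest of the 12, and the other 3 of that group lay below the lowest WT value. For LEGSKO+BSO library 1 that gap was 0.406 against 0.409 CPM in WT library 1, on 12 and 5 counts. The change was log2 -0.71 ± 0.71 SE with LEGSKO+BSO library 4 (adjusted p = 0.606) and -2.39 without it, 5.24-fold lower and called (adjusted p = 0.0422). Of 18 alternative fits, 1 gave this call. C4b gave -0.25 with library 4 and -0.99 without it (adjusted p = 0.865 and 0.459). Cd59a, at 20 to 25.3 CPM in LEGSKO+BSO, 21.6 to 25.7 in LEGSKO and 20.7 to 23.4 in WT fibers, gave log2 0.08 ± 0.08 SE in LEGSKO+BSO against WT (adjusted p = 0.644).

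Serpina3n had 0.608, 0.398, 0.131 and 3.21 CPM in LEGSKO+BSO fibers, 0.512, 1.02, 1.17 and 0.7 CPM in LEGSKO fibers, and 1.47, 1.16, 1.05 and 1 CPM in WT fibers. Library 4 was again the highest of all, and the other 3 LEGSKO+BSO libraries lay below every WT library. The change against WT was log2 -0.10 ± 0.65 SE (adjusted p = 0.948) and -1.59 without library 4 (adjusted p = 0.0796). Of the macrophage markers, Lyz2 was called higher in LEGSKO+BSO fibers than in both other conditions, at 3.78 to 5.51 CPM against 0.509 to 0.831 in LEGSKO and 0.388 to 0.9 in WT. All 16 markers, Lyz2 included, summed to 5.78 to 9.4 CPM in LEGSKO+BSO, 1.46 to 2.55 in LEGSKO and 1.35 to 2.96 in WT fibers. Lyz2 alone made up a large part of the LEGSKO+BSO sums, so they do not show a rise of the whole list. Library 4 of LEGSKO+BSO had 6.08 CPM over the 16 markers. Its 26 complement components that are not members summed to 49.9 CPM beside 40 to 46.2 in the other fiber libraries. Its pigment markers summed to 33.9 CPM beside 22.9 to 34, and its corneal and conjunctival markers to 9.29 beside 3.78 to 13.7. Retinal markers, at 5.26 CPM beside 4.61 to 50.1, ranked 11th of 12. The part of all these genes in the values was not tested.

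B2m and Tap1 showed no difference beyond their spread in fibers. B2m had 0.642, 0.398, 0.296 and 0.956 CPM in LEGSKO+BSO, 0.512, 0.319, 0.117 and 0.7 CPM in LEGSKO, and 1.39, 0.324, 0.333 and 0.301 CPM in WT fibers (log2 0.08 ± 0.57 SE in LEGSKO+BSO against WT, adjusted p = 0.953). Without WT fiber library 1, the highest of the 12, the change of B2m was log2 0.83 (adjusted p = 0.415). Tap1 gave -0.39 ± 0.50 SE in the same comparison (adjusted p = 0.698). With standard errors of this size a doubling could not have been told from no change.

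Of 11 complement regulators and receptors tested, 2 were called lower in LEGSKO+BSO fibers against WT, with a median of -0.23. Cfhr2, one of them, fell 1.85-fold (adjusted p = 0.0207), with 3.99, 5.54, 5.95 and 3.89 CPM in LEGSKO+BSO, 6.88, 6.2, 6.67 and 6.11 CPM in LEGSKO, and 12.4, 5.93, 9.43 and 8.41 CPM in WT fibers. LEGSKO+BSO just overlapped WT at WT library 2, and the call was lost without LEGSKO+BSO library 1 or 4 (adjusted p up to 0.0726). Of 12 components tested 1 was called: Cfp, properdin, which stabilises the alternative route, rose 1.55-fold (adjusted p = 0.0189), with 6.62, 6.24, 6.44 and 7 CPM in LEGSKO+BSO and 5.24, 4.03, 4.16 and 3.66 CPM in WT fibers. The Cfp call too was lost without LEGSKO+BSO library 1 or 4 (adjusted p up to 0.0551).

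Among 13 serpins tested in fibers, Serpind1, the thrombin inhibitor heparin cofactor II, fell 1.6-fold in LEGSKO+BSO (adjusted p = 0.00578, in all of 12 fits that leave out a library). In epithelia 17 serpins were tested and, beside Serping1 and Serpina3n, Serpinb9, an inhibitor of granzyme B, was called 1.44-fold lower in LEGSKO+BSO against LEGSKO (adjusted p = 0.0208, 6 of 12 fits).

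Whether the response differed between tissues was asked with an interaction term fitted to all 24 libraries, and edgeR called 0 of 10 members in each of 3 tests. The background was 0.276% for LEGSKO+BSO against WT, 0.103% for LEGSKO against WT and 0.0321% for LEGSKO+BSO against LEGSKO. At an unadjusted p below 0.05 there were 2 members in the first test, 0 in the second and 2 in the third, and DESeq2 called 1, in the first. Serpina3n came closest: its LEGSKO+BSO change was lower in fibers than in epithelia by log2 -3.31 ± 1.03 SE (95% interval -5.42 to -1.19, adjusted p = 0.142; DESeq2 0.0402). Its size rests on 2 libraries: it was -4.79 without LEGSKO+BSO fiber library 4 (adjusted p = 0.0503) and -2.42 without LEGSKO+BSO epithelial library 4 (adjusted p = 0.226). The same term for Serping1 was -0.43 ± 0.58 SE with all libraries and -2.10 without LEGSKO+BSO fiber library 4 (adjusted p = 0.0503). H2-K1 gave -0.69 ± 0.24 SE (95% interval -1.18 to -0.20, adjusted p = 0.199) and Ikbke -0.78 ± 0.42 SE (adjusted p = 0.427). So the call of Serpina3n in epithelia, and that of H2-K1 in fibers, is not shown to belong to 1 tissue. Of the related genes, Optn passed this test for LEGSKO+BSO (log2 -0.47 in fibers relative to epithelia, adjusted p = 0.0239, 21 of 24 fits that leave out a library, lost without LEGSKO+BSO epithelial library 3, WT epithelial library 2 or LEGSKO+BSO fiber library 4 at an adjusted p up to 0.0574).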

How the data were processed

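The authors deposited raw gene counts as 1 table of 24415 Entrez identifiers by 24 libraries, and the sample titles gave each library its group and number. TopHat, DESeq, bcl2fastq and CASAVA 1.8 are named, without role or order, in the submitters' processing notes, with genome build mm10 (GRCm38). Not given in the sources used here: the counting tool, the annotation and the strand setting. A RefSeq table of the same build gave symbols and coordinates for 24334 identifiers, and the 81 others held 0.914% of counts. No 2 libraries of a group were duplicates (chi-square 5.27 to 345 per degree of freedom).

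Two-sided quasi-likelihood F tests on the counts were run in edgeR 4.0.16 (R 4.3.3), and 95% intervals use the t quantile at each test's own degrees of freedom. Each tissue was fitted with its 12 libraries in 3 groups. Tissue comparisons and interactions used all 24 libraries in 6 groups. Genes passed filterByExpr (count of at least 10, total of at least 15), with TMM scaling and Benjamini-Hochberg adjustment at 0.05 over all genes tested. The procedure was tested on simulated data. Printed CPM differ from the scaling within a tissue by a log2 of 0.56 in epithelia and -0.56 in fibers, constant to within 0.05 and 0.02 between libraries. Lengths for CPM per kb are of the longest protein-coding transcript in GENCODE.

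The alternatives were DESeq2 1.42.0, its size factors, no filter, scaling without crystallins, the replicate number as a block, 2-group fits and leaving out each library. The members, the gene lists and the rule for naming (all members, then at most the 3 related genes of each list with the smallest adjusted p below 0.05) were chosen with earlier results of these data known. Total counts of 19.3 to 46.6 M per library limit precision for members under about 1 CPM. Some genes of the related lists are not reported here.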

Additional observations from a re-analysis of the deposited data

Results flagged for a closer look

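In 9 of 60 groups of 4 libraries, 1 library's level of a member stood apart from the other 3, with a gap to its nearest neighbour, as a share of the group's range, beyond Dixon's 95% critical value for 4 libraries. Chance gives about 1 in 20 such groups where values are normal and groups independent. The groups here share libraries and some rest on few counts, so an excess over chance is not shown. In LEGSKO+BSO epithelia, library 4 stood apart for H2-D1 at 58.5 CPM, B2m at 36.7 CPM, Tap1 at 7.72 CPM and C4b at 40.8 CPM, and library 2 stood apart for C3 at 1.8 CPM. In LEGSKO+BSO fibers, library 4 stood apart for C4b at 1.37 CPM, Serping1 at 2.22 CPM and Serpina3n at 3.21 CPM. In WT fibers, library 1 stood apart for B2m at 1.39 CPM.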

How the results depend on the processing

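Of 2759 alternative values for 117 member values, 2710 kept direction and call, 42 lost and 7 gained a call, and 0 called values changed sign. Among uncalled values 89 changed sign, in 38 pairs of member and comparison. Members called against WT in epithelia numbered 1 in LEGSKO+BSO and 1 in LEGSKO with only the 2 groups compared, and 3 in LEGSKO+BSO with DESeq2. In fibers against WT they numbered 1 in LEGSKO+BSO with only the 2 groups compared and 1 in LEGSKO with DESeq2, which also called 1 in the LEGSKO+BSO interaction. Leaving out 1 library gave 0 to 2 in LEGSKO+BSO and 0 to 2 in LEGSKO against WT epithelia, 0 to 1 in LEGSKO+BSO against LEGSKO epithelia, and 0 to 2 in LEGSKO+BSO against WT fibers. The cause was not tested.

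The replicate numbers did not pair libraries throughout (same-number correlations of deviations -0.30 to 0.40). With the number as a replicate block, 1 member was called in LEGSKO+BSO against WT fibers. LEGSKO+BSO fibers and epithelia correlated best with their own number in 4 of 4 (r 0.08 to 0.21, mean -0.05 for other numbers), a hint from the data only. Tissue and interaction tests treated all 24 libraries as independent, and whether both tissues of 1 animal share a number is not known.

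Counts over all genes moved more. DESeq2 called 580, 463 and 680 genes in epithelia (LEGSKO+BSO against WT, LEGSKO against WT, LEGSKO+BSO against LEGSKO) where edgeR called 177, 127 and 109, and 1172, 514 and 80 in fibers where edgeR called 742, 220 and 4. For LEGSKO against WT epithelia 56.8% of DESeq2's and 69.3% of edgeR's calls were higher. Its interaction calls were 293, 83 and 55, beside 43, 16 and 5. With 2 groups edgeR called 62 in LEGSKO+BSO against WT epithelia and 417, 85 and 56 in fibers, and with the block 46 in LEGSKO+BSO against LEGSKO epithelia and 143 in LEGSKO against WT fibers. Leaving out 1 library gave 41 to 324, 40 to 183 and 0 to 442 in epithelia and 285 to 1075, 61 to 591 and 1 to 93 in fibers. The highest count in each of these fiber comparisons came without WT fiber library 1. Members near 1 CPM, as most are in fibers, are limited by depth.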
